A study of Mus musculus with 23 samples.

Results

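The 10 genes described here belong to antioxidant defence in sorted mouse macrophages: the selenium carrier Sepp1, the thioredoxin system genes Txn1, Txnrd1, Prdx1 and Srxn1, and the glutathione system genes Gpx1, Gpx4, Gclm, Gclc and Slc7a11. They were taken by gene name, with earlier results of these data known. All 10 were found among 22524 genes in a first table of 12 libraries and among 25700 genes in a second table of 11 libraries. Sepp1 is listed in the second table under its newer name, Selenop, and was matched there by its identifier (ENSMUSG00000064373). Every one of the 10 passed the filter on low values in both tables. The study set macrophages of mice in which genes were altered against WT macrophages, with a series title that names the nuclear receptor PPARγ (gene Pparg) in erythroblastic island and red pulp macrophages. The 23 libraries were each made from 1000 sorted cells of C57BL/6 mice by oligo-dT priming and PCR.

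The first table holds 4 groups of day 7 pups with 3 libraries each: red pulp macrophages from spleen of vavCre pups (RPM_d7_vavCre) and of WT pups (RPM_d7_WT), and bone marrow macrophages of vavCre pups (BMM_d7_vavCre) and of WT pups (BMM_d7_WT). Vav promoters drive expression across blood-forming cells and their progeny, so a vavCre allele is not restricted to macrophages. The second table holds red pulp macrophages of Spic_KO pups at day 7 (2 libraries) and Spic_WT pups at day 7 (3 libraries), and of adults carrying TAM_CreERT2 (4 libraries) or WT (2 libraries, called TAM_WT here). The labels do not name the floxed gene, do not say what TAM stands for and do not say whether libraries of a group come from separate animals, so p-values measure only the spread between these libraries. The macrophages sorted from mutant spleens are, by the series' own description, the few that remain there. In such libraries of sorted cells, fewer cells of one kind and less RNA per cell cannot be told apart.

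Cells dispose of hydrogen peroxide and lipid peroxides mainly through a pair of enzyme systems, one fed by thioredoxin and one by glutathione, and both draw their electrons from NADPH. Several of the enzymes are selenoproteins: they carry selenocysteine, an amino acid inserted at a UGA codon that otherwise ends translation, and they lose activity when selenium is short. Red pulp macrophages and the macrophages of erythroblastic islands take in red cells or the nuclei expelled by erythroblasts, and so handle much haem and iron, which generate reactive oxygen species.

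A subset of the messages, Sepp1, Txnrd1, Gpx1 and Gpx4, hold UGA codons in frame in the annotated mouse coding transcripts (GENCODE vM21, GRCm38). The stretches around them are shown because they separate these members by how much selenium a protein takes: 10 in-frame TGA codons in Sepp1, and 1 each in Txnrd1, Gpx1 and Gpx4. Capitals mark the TGA that is read as selenocysteine, and all stretches are on the plus strand.
Sepp1, codon 59 of 380, chr15:3274836-3274865: cttcaagccagcTGAtacttgtgtcttctg
Sepp1, codon 259 of 380, chr15:3279330-3279359: cacttagagagcTGAgacaccacagcaagt
Sepp1, codon 277 of 380, chr15:3279384-3279413: cagaggaagctcTGAcgaagggggtgcatc
Sepp1, codon 377 of 380, chr15:3279684-3279710: aggaagtgaaaaTGAcattcaaactaa
Txnrd1, codon 498 of 499, chr10:82896025-82896045: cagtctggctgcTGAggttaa
Gpx1, codon 47 of 201, chr9:108339439-108339468: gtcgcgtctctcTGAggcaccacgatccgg
Gpx4, codon 73 of 197, chr10:80054725-80054754: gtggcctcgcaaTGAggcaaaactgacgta
The first TGA of Sepp1 stands apart from the other 9, which lie between codons 259 and 377. The selenocysteine of Txnrd1 is the next to last residue, whereas those of Gpx1 and Gpx4 lie in the first part of the protein. The other 6 members, Txn1, Prdx1, Gclm, Gclc, Srxn1 and Slc7a11, hold no in-frame TGA before their stop codon and need no selenium of their own.

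Values are normalised read counts, comparable between libraries of 1 table but not between tables. A value after ± is the SD over the libraries of a group, 3 in every group of the first table. The libraries hold 4262473 to 21744118 reads in the first table and 692903 to 6289364 reads in the second, where the TAM_CreERT2 libraries are the shallowest (692903 to 1668714 reads, against 1901913 to 4243379 reads in TAM_WT). Changes are log2 differences of normalised counts with 1 added, tested with limma's moderated test over all libraries of a table and adjusted by Benjamini-Hochberg over all genes tested, and a change passed where the adjusted p was under 0.05. The genotype labels were checked against Pparg and Spic, without knowing which exons are deleted, so reads outside them check nothing. Pparg was higher in vavCre spleen (3037 ± 838, against 1788 ± 299 in WT; log2 change 0.74, adjusted p = 0.0313), did not pass in vavCre marrow (2291 ± 606, against 1636 ± 57.8; 0.45, adjusted p = 0.193) or in TAM_CreERT2 adults (229.7 ± 35.5 in 4 libraries, against 130.0 ± 53.4 in 2; 0.86, adjusted p = 0.600), and was lower in Spic_KO (23.9 ± 3.04 in 2 libraries, against 254 ± 66.3 in 3; −3.33, adjusted p = 2.9e-05). The targeted gene Spic itself was lower in Spic_KO (1084 ± 216, against 2435 ± 594; −1.16, adjusted p = 0.0319). Spic was also lower in vavCre spleen (9260 ± 801, against 14970 ± 1026 in WT; −0.69, adjusted p = 0.00116). It did not pass in vavCre marrow (−0.10, adjusted p = 0.705) or in TAM_CreERT2 adults (−0.69, adjusted p = 0.579). All 11 macrophage markers looked for were detected in every group.

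Sepp1 had the highest mean per kilobase of the 10 members in 7 of the 8 groups. It encodes selenoprotein P, the secreted carrier that delivers selenium to tissues (GRCm38 chr15:3268547-3280508, plus strand). Lengths here are those of all annotated exons of a gene merged, which is not the length of any single transcript. Per kilobase of such exon, its mean normalised count in vavCre red pulp macrophages was 63089. Gpx1 (5843), Prdx1 (5254), Txn1 (3739) and Gpx4 (1561) came next, while Gclm, Gclc, Srxn1 and Txnrd1 lay between 74.1 and 207 and Slc7a11 at 0.384. In WT red pulp macrophages the order per kilobase was Sepp1 (17714), Gpx1 (10944), Txn1 (8767), Prdx1 (4668) and Gpx4 (1795), with Gclm, Gclc, Txnrd1 and Srxn1 between 50.3 and 260.2. By this measure Txn1 stood above Prdx1 in WT spleen and below it in vavCre spleen. By normalised count, without the length, Txn1 was below Prdx1 in both (9214 against 14203 in WT, and 3930 against 15987 in vavCre). In marrow Sepp1 had 55090.3 per kilobase in vavCre and 26157 in WT, with Gpx1 next at 4733 and 7969. In the second table, Sepp1 and Gpx1 had 2857 and 1252 per kilobase in Spic_KO, 4204 and 1221 in TAM_CreERT2, and 2140 and 2061 in TAM_WT. Gpx1 (2435) stood above Sepp1 (2223) in Spic_WT. Ccdc152, a gene that overlaps Sepp1 on the opposite strand, had counts at 54.5 to 97.0% of the Sepp1 value in the second table. The Sepp1 level there is thus uncertain, and its lead is not compared between the tables.

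In vavCre pups, Sepp1 mRNA was higher in both tissues while Txn1 and Gpx1 were lower in both, and the rise of Sepp1 was larger in spleen than in marrow. Sepp1 had 167700, 185100 and 185100 normalised counts in the 3 RPM_d7_vavCre libraries, against 46710, 47760 and 56560 in the 3 RPM_d7_WT libraries. The groups did not overlap, as for 24.01% of all genes tested, counting either direction. Sepp1 was the highest of all 22524 genes by normalised count in each vavCre spleen library, and it ranked between 13 and 16 in WT spleen. The change was 1.84 on the log2 scale (SE 0.08, 95% interval 1.66 to 2.01, adjusted p = 2.7e-11), or 3.57-fold.

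In marrow, Sepp1 had 150600, 142100 and 177000 normalised counts in the BMM_d7_vavCre libraries, against 75620, 74500 and 72890 in the BMM_d7_WT libraries. Here too it was the highest gene in each vavCre library, and it ranked 7 in each WT library. The marrow change was 1.07 (SE 0.08, 95% interval 0.89 to 1.24, adjusted p = 9.2e-08), or 2.10-fold. The difference between the tissues was tested as an interaction: the spleen change exceeded the marrow change by 0.77 (SE 0.12, 95% interval 0.52 to 1.02, adjusted p = 0.00608). Of all genes, 0.119% passed that interaction test (0.112% higher and 0.00661% lower), and Sepp1 was the member among them.

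The WT groups themselves differed. WT red pulp macrophages held less Sepp1 than WT marrow macrophages (50343 ± 5409, against 74337 ± 1372; SD, n = 3 each; log2 difference −0.57, adjusted p = 0.000429, or 1.48-fold lower). In vavCre pups, spleen and marrow held 179300 ± 10046 and 156567 ± 18199 normalised counts, and the difference of 0.20 did not pass (adjusted p = 0.226). As a share of all signal, Sepp1 made up 1.59 to 1.82% in vavCre spleen against 0.481 to 0.570% in WT spleen, and 1.49 to 1.83% in vavCre marrow against 0.784 to 0.821% in WT marrow. The other 9 members together moved the other way, with 0.304 to 0.355% in vavCre spleen against 0.446 to 0.477% in WT spleen, and 0.281 to 0.318% in vavCre marrow against 0.387 to 0.401% in WT marrow.

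**Figure D1:**
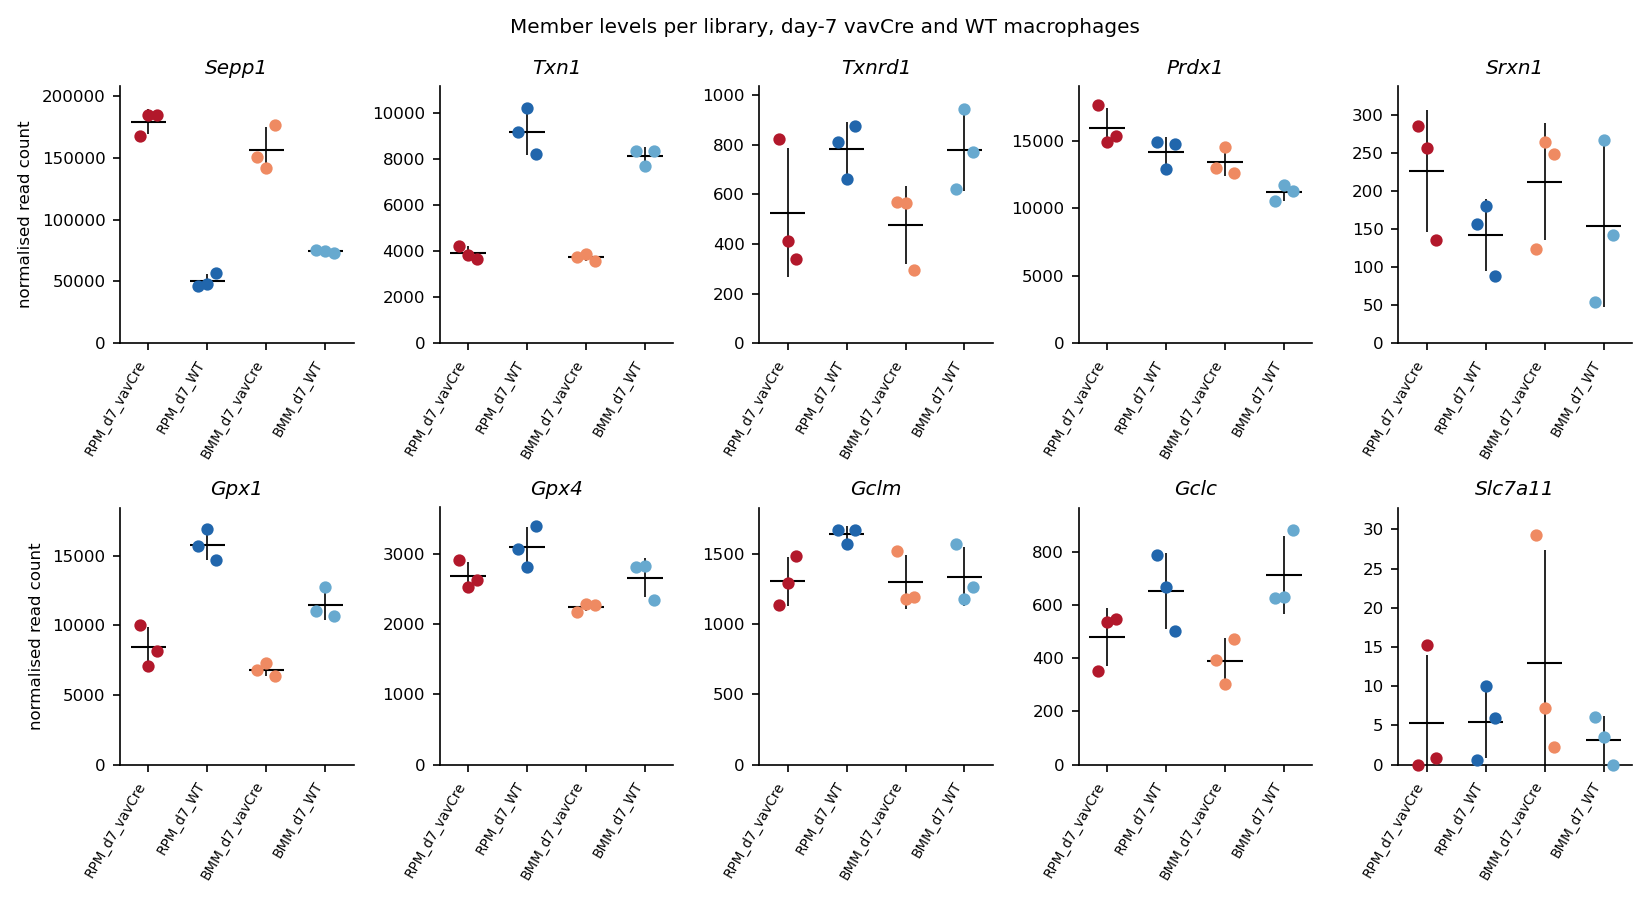
Normalised read counts (linear axes from 0, one scale per gene) of the 10 genes in the 12 libraries of day 7 pups, one panel per gene, with vavCre left of WT for spleen and for marrow; each point is 1 library, the horizontal bar the group mean and the vertical line 1 SD either side. Sepp1 lies higher in all 6 vavCre libraries, Txn1 and Gpx1 lie lower in all 6, and Slc7a11 does not pass 29.31. The vavCre and WT groups of a tissue do not overlap for 24.01% of all genes tested in spleen and 19.82% in marrow.

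Txn1 encodes thioredoxin, the small protein that reduces oxidised proteins and peroxiredoxins (chr4:57943373-57956411, minus strand). It had 4245, 3857 and 3687 normalised counts in vavCre spleen libraries, against 9195, 10230 and 8216 in WT spleen libraries. In marrow it had 3759, 3886 and 3565 in vavCre libraries, against 8386, 7720 and 8363 in WT libraries. The highest vavCre value of either tissue was below the lowest WT value of either tissue. Within a single tissue, the groups did not overlap for 24.01% of all genes tested in spleen and 19.82% in marrow. Txn1 fell by 1.23 on the log2 scale in spleen (SE 0.11, adjusted p = 5.0e-07), which is 2.34-fold lower, and by 1.13 in marrow (SE 0.11, adjusted p = 1.7e-06), which is 2.18-fold lower. The test of a difference between the tissues gave −0.10 with an adjusted p of 0.945.

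The other thioredoxin system genes among the members, Prdx1, Txnrd1 and Srxn1, passed in neither tissue. Prdx1, a peroxiredoxin that breaks down hydrogen peroxide and is recharged by thioredoxin (chr4:116685544-116700822, plus strand), had 15987 ± 1458 normalised counts in vavCre spleen against 14203 ± 1096 in WT spleen, and 13413 ± 1011 in vavCre marrow against 11193 ± 611 in WT marrow (SD, n = 3 each). Its log2 changes of 0.17 in spleen and 0.26 in marrow did not pass (adjusted p = 0.445 and 0.123), although the marrow change was 0.36 and passed (adjusted p = 0.0244) when each library was centred on its median log2 value. Txnrd1, the selenoprotein that returns thioredoxin to its reduced form, had 823, 412.1 and 341.1 in vavCre spleen libraries against 812.1, 659.8 and 873.4 in WT spleen libraries, so the groups overlapped. Its changes of −0.67 in spleen and −0.75 in marrow did not pass (adjusted p = 0.297 and 0.176). Srxn1, sulfiredoxin, which repairs overoxidised peroxiredoxins, ranged from 134.9 to 285.4 in vavCre spleen against 88.52 to 180.3 in WT spleen, and from 123.5 to 264.2 in vavCre marrow against 54.3 to 266.3 in WT marrow. Neither difference passed (0.66 with adjusted p = 0.636 and 0.65 with adjusted p = 0.534).

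Gpx1 encodes the cytosolic glutathione peroxidase that reduces hydrogen peroxide (chr9:108338903-108340343, plus strand). Its normalised counts were 9986, 7085 and 8190 in vavCre spleen libraries, against 15720, 16880 and 14710 in WT spleen libraries. In marrow they were 6795, 7291 and 6373 in vavCre libraries, against 11000, 12760 and 10690 in WT libraries. No vavCre library reached the lowest WT library of its tissue. Groups were separate, in either direction, for 24.01% of all genes tested in spleen and 19.82% in marrow. Gpx1 fell by 0.92 in spleen (SE 0.12, adjusted p = 4.6e-05, 1.89-fold lower) and by 0.75 in marrow (SE 0.12, adjusted p = 0.000412, 1.68-fold lower), with a tissue difference of −0.17 (95% interval −0.52 to 0.18, adjusted p = 0.918).

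Gpx4, the selenoprotein that reduces lipid peroxides in membranes and restrains ferroptosis (chr10:80047166-80056439, plus strand), passed in neither tissue. It had 2692 ± 199.6 normalised counts in vavCre spleen against 3095 ± 290.5 in WT spleen, and 2247 ± 58.9 in vavCre marrow against 2666 ± 275 in WT marrow, with changes of −0.20 and −0.24 that did not pass (adjusted p = 0.524 and 0.315). Thus of the 4 selenoprotein members, Sepp1 rose and Gpx1 fell in both tissues, and Gpx4 and Txnrd1 passed in neither.

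Of the genes for glutathione synthesis, one of the subunits of glutamate-cysteine ligase passed, in marrow. Gclc, the catalytic subunit, had 393.5, 304.2 and 473 normalised counts in BMM_d7_vavCre libraries, against 625.4, 629 and 882.1 in BMM_d7_WT libraries. It fell by 0.87 (SE 0.26, 95% interval −1.42 to −0.32, adjusted p = 0.0471), but the adjusted p rose to between 0.0584 and 0.187 when BMM_d7_WT replicate 1, 2 or 3 or BMM_d7_vavCre replicate 1 or 2 was left out. In spleen Gclc had 352.3, 536.7 and 547.4 in vavCre libraries against 788.6, 665.6 and 501.5 in WT libraries, which overlapped (−0.45, adjusted p = 0.452).

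Gclm, the modifier subunit, had 1133, 1294 and 1481 in vavCre spleen libraries against 1670, 1570 and 1670 in WT spleen libraries. The spleen groups did not overlap, as for 24.01% of all genes tested, but the change of −0.34 did not pass (adjusted p = 0.344). In marrow the change was −0.04 (adjusted p = 0.927), and 0.06 after median centring. Its exons overlap those of the annotated genes Gm17494 and Gm6061, so its reads are uncertain. Slc7a11, the cystine carrier that supplies cysteine for glutathione, was at the edge of detection, with 0, 18 and 1 reads in vavCre spleen libraries against 1, 12 and 13 in WT spleen libraries, and 14, 6 and 1 reads in vavCre marrow libraries against 3, 4 and 0 in WT marrow libraries.

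In all, 1 member rose and 2 fell in vavCre spleen, where 5.52% of all 15130 genes tested passed (2.98% higher and 2.54% lower), and 1 rose and 3 fell in vavCre marrow, where 7.81% passed (3.41% higher and 4.4% lower). After median centring, which lifts the marrow median of all genes by 0.101, the marrow genes split into 679 higher and 559 lower, in place of 516 higher and 666 lower, and 2 members rose and 2 fell. The median change of the 10 members was −0.39 in spleen (all genes −0.02) and −0.14 in marrow (all genes −0.04).

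**Figure D2:**
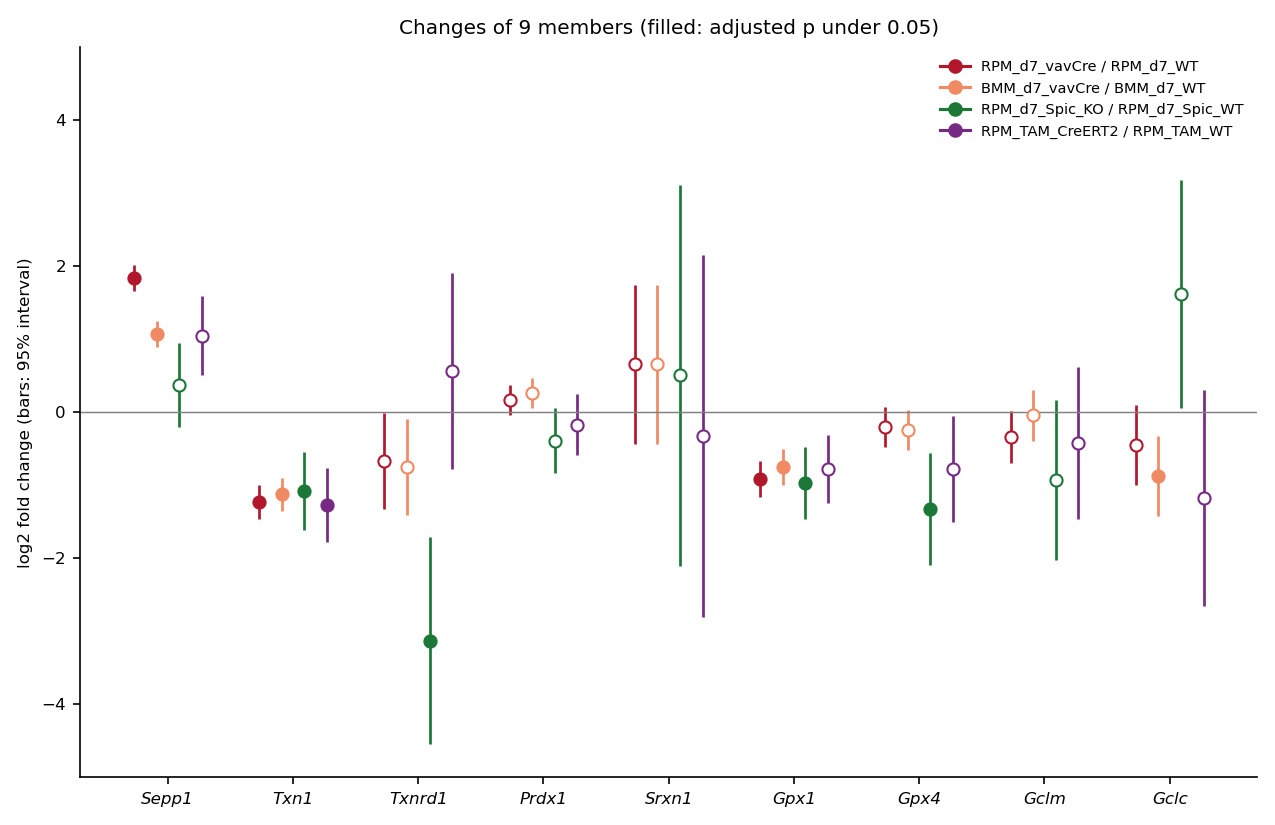
Log2 changes (vertical axis) with 95% intervals (lines) of 9 of the genes, Slc7a11 left out for its few reads, in the 4 genotype comparisons, with filled points where the adjusted p was under 0.05. Sepp1 lies above 0 in each comparison and passes in the 2 vavCre comparisons, and Txn1 lies below 0 and passes in all 4.

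Between the tissues, spleen macrophages differed from marrow macrophages in 2 members in WT and in 0 in vavCre, where limma, edgeR and DESeq2 each called 0 and 3 had an unadjusted p under 0.05. The background of genes that passed was 3.89% in WT (2.07% higher and 1.82% lower in spleen) and 3.5% in vavCre (2.68% higher and 0.82% lower). Beside Sepp1, Gpx1 was higher in WT spleen than in WT marrow (15770 ± 1086, against 11483 ± 1116; log2 difference 0.46, adjusted p = 0.0350), a call that was lost without any 1 of RPM_d7_WT replicates 1, 2 and 3 and BMM_d7_WT replicates 1 and 3 (adjusted p from 0.0568 to 0.144). The Gpx1 difference in vavCre pups was 0.29 (8420.3 ± 1464 in spleen, against 6819.7 ± 459 in marrow; adjusted p = 0.215). Txn1 did not separate the tissues in either genotype (0.17 in WT with adjusted p = 0.493, and 0.07 in vavCre).

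Across the 4 genotype comparisons, the wider pathway was described by 9 lists holding 159 further genes of redox and selenium metabolism, chosen with earlier results of these data known. In vavCre spleen, 9 of the 154 listed genes tested rose and 12 fell (13.6%, against 5.52% of all genes), with a median change of −0.05. In vavCre marrow 13 rose and 21 fell (22.1%, against 7.81% of all genes), with a median of −0.09.

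Of the 18 thioredoxin system genes beside the members, Prdx5, a mitochondrial and peroxisomal peroxiredoxin, and Sesn1, a stress-induced sestrin, rose in vavCre spleen, and Prdx2, the peroxiredoxin that is most abundant in red cells, fell. Prdx2 had 6824 ± 983 normalised counts in vavCre spleen against 11130 ± 1094 in WT spleen (−0.71, adjusted p = 0.00204), and Prdx5 had 2728 ± 379 against 1508 ± 116 (0.85, adjusted p = 0.00104). The same 3 genes passed in marrow in the same directions, with changes of −0.60 for Prdx2, 0.57 for Prdx5 and 0.87 for Sesn1. Of the 30 other glutathione genes, 1 rose and 4 fell in spleen, and 2 rose and 5 fell in marrow. Gpx3, the secreted glutathione peroxidase and a selenoprotein, rose in both (2476 ± 260 against 862.5 ± 300 in WT spleen, and 1447 ± 76.6 against 477 ± 81 in WT marrow). Gsto1, an omega-class glutathione transferase, fell in both (−1.25 with adjusted p = 0.000597 in spleen, and −1.66 with adjusted p = 3.1e-05 in marrow).

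Among genes of selenium uptake and selenocysteine synthesis, 2 of 14 fell in each tissue and 0 rose. They were Lrp8, the receptor that takes up selenoprotein P in brain and testis, and Trnau1ap, which binds the selenocysteine tRNA. Lrp8 had 5.80 ± 0.858 normalised counts in vavCre spleen against 199 ± 100 in WT spleen (−4.76, adjusted p = 0.000357), and 46.1 ± 50.4 in vavCre marrow against 242 ± 139 in WT marrow (−2.77, adjusted p = 0.0253). Trnau1ap had 489 ± 73.9 against 921 ± 44.4 in WT spleen (−0.92, adjusted p = 0.0349). Of the 13 remaining selenoproteins, 0 passed in spleen; in marrow Selenof (listed as Sep.15) rose by 0.48 and Selenow (listed as Sepw1) fell by 0.55 (adjusted p = 0.0179 and 0.0467). In spleen Selenof had a change of 0.41 (adjusted p = 0.0531).

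The superoxide list had 3 of 11 genes up and 2 down in each tissue. Cybb and Ncf1, subunits of the phagocyte NADPH oxidase that makes superoxide, rose in both, and Sod1, the cytosolic superoxide dismutase, fell in both. Ncf1 had 615 ± 51.8 normalised counts in vavCre spleen against 211 ± 75.4 in WT spleen (1.60, adjusted p = 0.00228), and 656 ± 145 in vavCre marrow against 187 ± 43.8 in WT marrow (1.81, adjusted p = 0.000723). Sod1 had 4287 ± 220 in vavCre spleen against 6761 ± 513 in WT spleen (−0.66, adjusted p = 0.000825).

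Of 14 genes that supply NADPH, 2 fell in vavCre spleen, and 1 rose and 4 fell in vavCre marrow. Me2, a mitochondrial malic enzyme, fell by 1.39 in spleen and by 1.50 in marrow, and Taldo1, of the pentose phosphate pathway, fell by 0.89 in spleen. Of the 16 genes for cystine, cysteine and the ATF4 response, 1 rose in spleen (Ctns, the lysosomal cystine exporter, 1.01), and 3 fell in marrow beside 1 that rose, the list's marrow median being −0.95. Those 3 were Asns (61.1 ± 25.8 in vavCre marrow, against 262 ± 78.3 in WT marrow), the glutamine carrier Slc1a5 (112 ± 41.2, against 408 ± 197), and the amino acid carrier Slc1a4, with 0 reads in each vavCre marrow library against 30.8 ± 11.7 normalised counts in WT marrow. Slc3a2, the chain that pairs with Slc7a11 in the cystine carrier and with other amino acid carriers, fell in both tissues (3701 ± 445 against 6457 ± 543 in WT spleen, and 2909 ± 316 against 4893 ± 784 in WT marrow).

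On the list of the NRF2 pathway, the transcription factor that induces antioxidant genes and its other targets, 1 of 23 genes rose and 0 fell in vavCre spleen, and 2 rose and 2 fell in vavCre marrow. Bach1, the haem-sensing repressor of such targets, rose in spleen (766 ± 62.8, against 333 ± 72; 1.22, adjusted p = 0.00417). In marrow Fth1, the ferritin heavy chain, rose by 0.49 and the quinone reductase Nqo1 fell (1.21 ± 2.10, against 35.6 ± 24.4). Of the 15 genes of lipid peroxide defence, 1 rose and 1 fell in each tissue. Slc40a1, which encodes ferroportin, the exporter of iron, rose in both (61673 ± 1092 against 49233 ± 1498 in WT spleen, 0.33, adjusted p = 0.0131, and 39447 ± 1860 against 32250 ± 3132 in WT marrow, 0.29, adjusted p = 0.0211). Acsl3, a fatty acid activating enzyme, fell in spleen (163 ± 67.9, against 375 ± 82.3), and Gch1, which starts tetrahydrobiopterin synthesis, fell in marrow (a mean of 22 ± 11.6, against 195 ± 6.67). Of the pathway genes picked for naming, 13 of 17 in spleen and 15 of 24 in marrow kept their call whichever library was left out. Those that lost it at least once were Trnau1ap, Slc40a1, Acsl3 and Ctns in spleen, and Prdx2, Prdx5, Selenof, Selenow, Trnau1ap, Lrp8, Nqo1, Sqstm1 and Slc40a1 in marrow. In the interaction test limma and edgeR called 0 of the 154 pathway genes, DESeq2 called 4, and 13 had an unadjusted p under 0.05.

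Between the tissues, 11 pathway genes were higher in WT spleen than in WT marrow and 1 was lower (7.79%, against 3.89% of all genes), and 14 were higher and 1 lower in vavCre spleen than in vavCre marrow (9.74%, against 3.5%). Hmox1 was higher in WT spleen (50223 ± 7104, against 25867 ± 8011 in WT marrow; 0.99, adjusted p = 0.0164), and Bach1 was lower (333 ± 72.0, against 642 ± 41.4; −0.96, adjusted p = 0.0331). The pentose phosphate enzyme Taldo1 and the exporter Slc40a1 were higher in spleen in both genotypes (log2 differences of 0.79 and 0.65 in vavCre, and 0.97 and 0.61 in WT), and these 2 kept their calls with any 1 library left out, while Hmox1 and Bach1 did not.

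**Figure D3:**
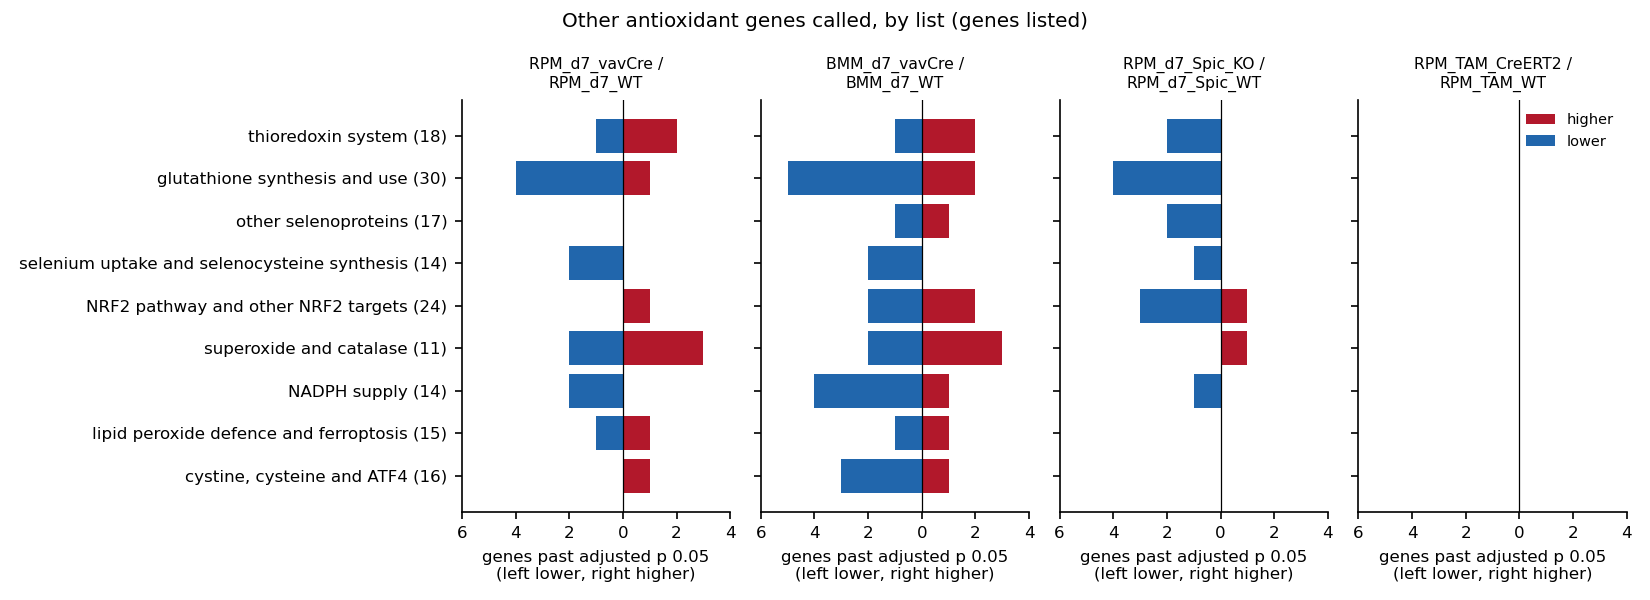
Number of genes that passed with higher values (right of 0) and with lower values (left of 0) in each of the 9 pathway lists in the 4 genotype comparisons, with the number of genes listed in brackets. The TAM_CreERT2 panel holds no bar.

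Markers of other cells moved with the vavCre groups. The 24 erythroid markers made up 1.16 to 1.62% of the signal in vavCre spleen against 2.36 to 3.56% in WT spleen, and 0.955 to 1.41% in vavCre marrow against 2.56 to 3.77% in WT marrow, with 13 of 24 lower in spleen and 19 of 24 lower in marrow, and all 24 detected. Cell cycle genes made up 0.129 to 0.169% against 0.266 to 0.278% in WT spleen, and 0.121 to 0.179% against 0.239 to 0.298% in WT marrow. The part of these RNAs in the lower Txn1, Gpx1 and Prdx2, which red cell precursors also express, was not tested. Macrophage markers made up 1.78 to 2.08% in vavCre spleen against 1.58 to 1.73% in WT spleen, and 1.45 to 1.55% in vavCre marrow against 1.22 to 1.55% in WT marrow. The 13 markers of red pulp and island macrophages made up 1.62 to 1.75% in vavCre spleen against 2.18 to 2.43% in WT spleen, and 0.928 to 1.05% in vavCre marrow against 1.44 to 1.54% in WT marrow, with 8 of 13 lower in each tissue, 1 higher in spleen and 2 higher in marrow. Platelet and megakaryocyte markers made up 0.0879 to 0.140% in vavCre spleen against 0.00716 to 0.0102% in WT spleen, and 0.166 to 0.186% in vavCre marrow against 0.0276 to 0.0450% in WT marrow, with 1 of 8 tested higher in spleen, and 1 higher and 1 lower in marrow; Gp6 was at 0 in both vavCre groups. Eosinophil and mast cell markers (0.00551 to 0.00636% in vavCre spleen, against 0.0324 to 0.0448% in WT spleen) and endothelial and stromal markers (0.0198 to 0.0284%, against 0.0473 to 0.0595%) took smaller shares, with 1 of 7 and 2 of 12 lower. The part of these RNAs in the members' changes was not tested.

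In Spic_KO red pulp macrophages 4 members fell and 0 rose: Txn1, Txnrd1, Gpx1 and Gpx4. Spic is a transcription factor that red pulp macrophages depend on. Txn1 had 638.8 and 675.7 normalised counts in the 2 Spic_KO libraries, against 1330, 1186 and 1705 in the 3 Spic_WT libraries (−1.08, SE 0.26, 95% interval −1.61 to −0.55, adjusted p = 0.0193, 2.12-fold lower). Gpx1 had 1538 and 2069 in Spic_KO, against 3991, 3516 and 3019 in Spic_WT (−0.97, SE 0.24, adjusted p = 0.0232, 1.95-fold lower). For both genes the highest Spic_KO library lay below the lowest Spic_WT library. With so few libraries, the groups did not overlap, in either direction, for 34.2% of all genes tested. The Txn1 call was lost without Spic_WT replicate 1 (adjusted p = 0.0541), Spic_WT replicate 3 (0.120) or Spic_KO replicate 2 (0.0897), and the Gpx1 call without Spic_WT replicate 1 (0.0997), Spic_WT replicate 2 (0.0716) or Spic_KO replicate 1 (0.113).

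Txnrd1 had 16.02 and 2.07 normalised counts in Spic_KO (32 and 4 reads), against 78.11, 56.41 and 54.69 in Spic_WT, and Gpx4 had 210.8 and 244.2 in Spic_KO, against 559.6, 530.1 and 628.5 in Spic_WT. The groups did not overlap for either gene, as for 34.2% of all genes tested. Txnrd1 fell by 3.13 on the log2 scale (SE 0.68, 95% interval −4.54 to −1.72, adjusted p = 0.0108), and its change lay between −4.36 and −1.89 with 1 library left out, losing the call without Spic_WT replicate 1 (adjusted p = 0.0674) or Spic_KO replicate 2 (0.147). The Gpx4 change was −1.33 (SE 0.37, 95% interval −2.09 to −0.56, adjusted p = 0.0448), a call lost when any 1 of the 5 libraries was left out (adjusted p from 0.0852 to 0.182). Both are selenoproteins.

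The other members did not pass in Spic_KO. Sepp1 had 8614 and 7624 normalised counts in Spic_KO, against 7711, 5593 and 5650 in Spic_WT, with overlap (0.38, 95% interval −0.20 to 0.95, adjusted p = 0.519). Prdx1 had 1821 and 1753, against 2641, 1849 and 2619 in Spic_WT (−0.39, adjusted p = 0.343). Its groups did not overlap, as for 34.2% of all genes tested. Gclc was set by 1 library, with 31.04 and 443.4 in Spic_KO, against 39.18, 40.29 and 34.31 in Spic_WT (1.62, adjusted p = 0.248 by limma, 0.0343 by edgeR and 0.00403 by DESeq2). Without Spic_KO replicate 2 its change was −0.28, and without Spic_KO replicate 1 it was 3.52 (adjusted p = 0.00116). Srxn1 likewise had 71.09 and 1.552, against 5.561 to 14.89 in Spic_WT, and Gclm had 146.7 and 39.84, against 118.8 to 189.3 in Spic_WT (−0.93, adjusted p = 0.364, and −1.86 with adjusted p = 0.0350 without Spic_KO replicate 1). Slc7a11 had 1 and 2 reads in Spic_KO and 0 reads in each Spic_WT library.

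The background in this comparison was 3.95% of all 16650 genes tested (1.47% higher and 2.48% lower), and the median change of the 10 members was −0.66 beside 0 for all genes. Median centring lifts the change of the median gene by 0.213, and 350 genes were then higher and 269 lower, in place of 245 higher and 413 lower. The splits were 554 higher and 395 lower by edgeR and 932 higher and 804 lower by DESeq2. After centring, Txnrd1 still passed (−2.92, adjusted p = 0.0190), and Txn1 (−0.87, adjusted p = 0.0693), Gpx1 (−0.75, adjusted p = 0.0849) and Gpx4 (−1.12, adjusted p = 0.0985) did not. Without Spic_WT replicate 1, 0 members passed. The Spic_KO libraries hold 2852897 and 3067535 reads, against 4235366 to 6289364 reads in Spic_WT; the part of this depth gap was not tested.

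**Figure D4:**
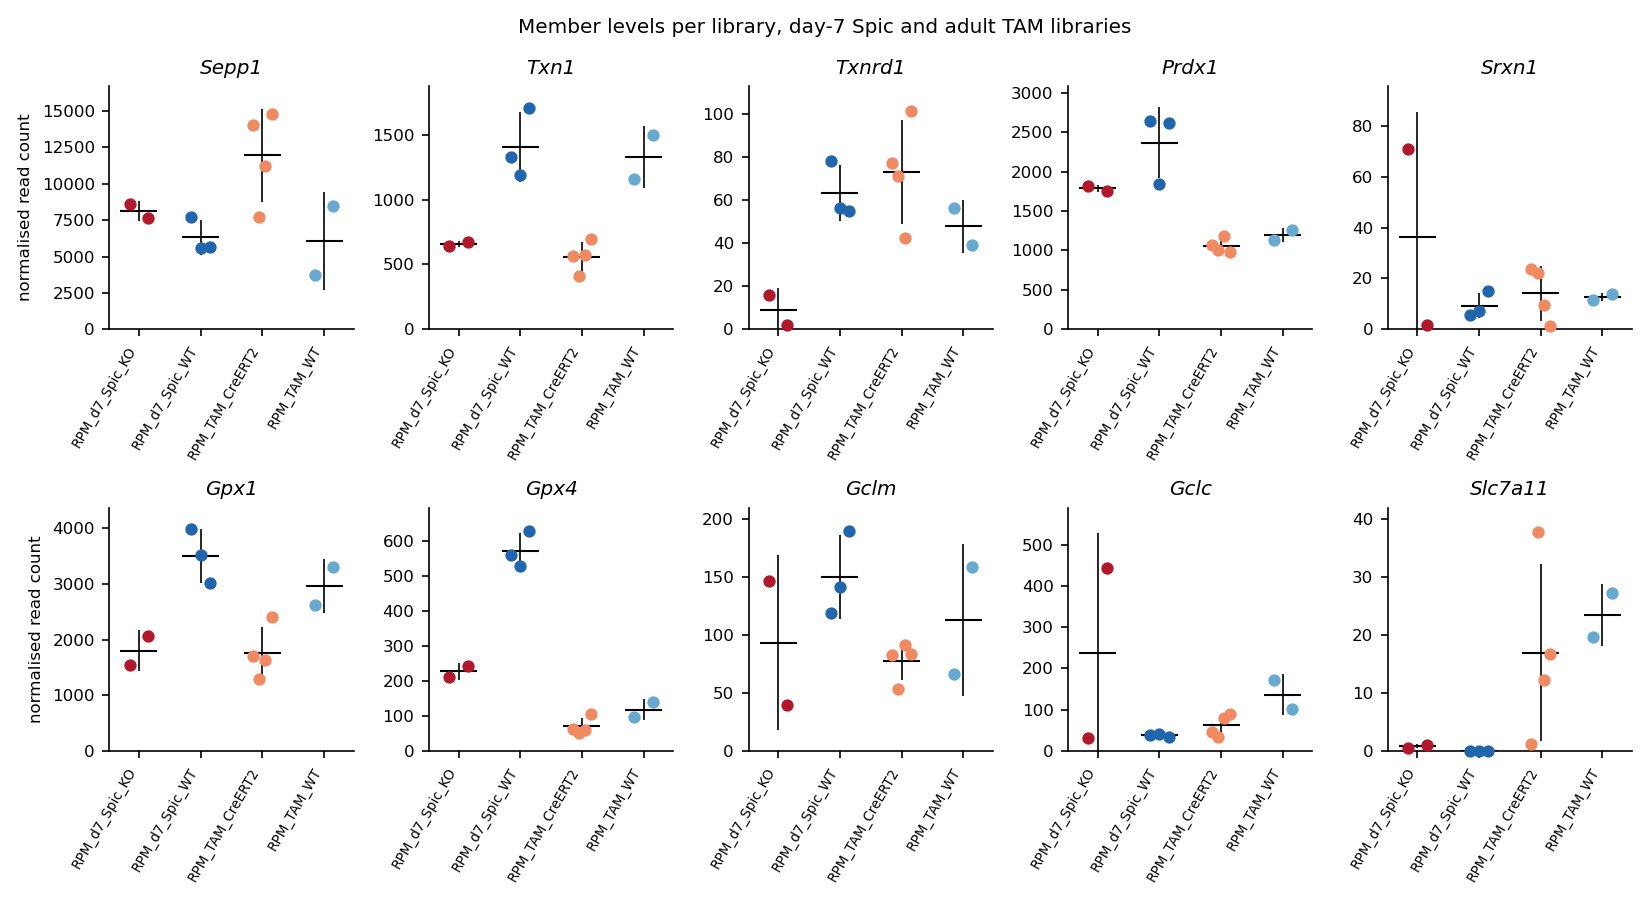
Normalised read counts (linear axes from 0, one scale per gene) of the 10 genes in the 11 libraries of the second table, one panel per gene, with Spic_KO left of Spic_WT and TAM_CreERT2 left of TAM_WT; each point is 1 library, the horizontal bar the group mean and the vertical line 1 SD either side. Txn1 separates both pairs of groups without overlap, as do 34.2% of all genes tested for the Spic pair and 13.7% for the TAM pair. Gclc is carried by 1 Spic_KO library at 443.4.

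Among the 151 pathway genes tested in Spic_KO, 2 rose and 13 fell (9.93%, against 3.95% of all genes), with a median of −0.33; after centring 4 rose and 10 fell. The falls included the mitochondrial peroxiredoxin Prdx3 (54.6 ± 9.91 in 2 Spic_KO libraries, against 219 ± 54.8 in 3 Spic_WT libraries; −1.97, adjusted p = 0.0117) and the methionine sulfoxide reductase Msra (3.06 ± 0.791, against 42.1 ± 8.36; −3.40, adjusted p = 0.0106). Of 29 glutathione genes tested, 4 fell, among them the transferases Mgst1 (0.259 ± 0.366, against 82.2 ± 17.3), Gsto1 (169 ± 49.3, against 544 ± 119) and Gstk1 (0 reads in both Spic_KO libraries, against 44.9 ± 18.1 normalised counts). The selenoproteins Selenof (97.9 ± 69.7, against 352 ± 73.9; −2.02, adjusted p = 0.0207) and Selenow (139 ± 42.9, against 409 ± 42.4; −1.58, adjusted p = 0.0387) fell as well. With any 1 library left out, 5 of the 13 genes picked for naming kept their call (Gstk1, Mgst1, Ftl1, Hmox1 and Blvrb), and Msra, Prdx3, Gsto1, Selenof, Selenow, Lrp8, Ncf1 and Mthfd2 lost it at least once.

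Of the 23 genes on the NRF2 list, 1 rose and 3 fell in Spic_KO, and the 3 that fell handle haem and iron. Hmox1, which opens the haem ring, had 1325 ± 53.7 normalised counts in Spic_KO against 5136 ± 3179 in Spic_WT (−1.79, adjusted p = 0.00126), Blvrb, which reduces biliverdin, had 581 ± 80.9 against 2196 ± 116 (−1.92, adjusted p = 0.00455), and the ferritin light chain Ftl1 had 12500 ± 2192 against 27553 ± 7206 (−1.12, adjusted p = 0.000759). The iron exporter Slc40a1 did not pass (4292 ± 214, against 5271 ± 326; −0.30, adjusted p = 0.391). Ncf1 rose, as it did in vavCre pups (139 ± 11.5, against 23.5 ± 8.65; 2.58, adjusted p = 0.00792). Macrophage markers made up 1.07 to 1.13% of the signal in Spic_KO against 1.43 to 1.90% in Spic_WT, and 5 of 11 fell. The 13 red pulp and island macrophage markers made up 0.759 to 0.894% in Spic_KO against 1.58 to 2.14% in Spic_WT, with 5 of 13 lower and 0 higher. Platelet and megakaryocyte markers made up 0.0740 to 0.0974% in Spic_KO against 0.00444 to 0.00775% in Spic_WT, with 1 of 8 tested higher. Erythroid markers made up 5.13 to 5.47% against 5.25 to 7.41%, with 1 of 24 higher and 2 lower. The part of these shifts in the members' changes was not tested.

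In TAM_CreERT2 adults, Txn1 was the member that passed. It had 562.2, 407.7, 569.2 and 694.7 normalised counts in the 4 TAM_CreERT2 libraries, against 1162 and 1501 in the 2 TAM_WT libraries. The groups did not overlap, as for 13.7% of all genes tested. Txn1 fell by 1.27 (SE 0.24, 95% interval −1.77 to −0.76, adjusted p = 0.0432, 2.40-fold lower). The call was lost when any 1 library was left out (adjusted p from 0.0814 to 0.226). In the background 0.144% of all genes passed, 0.0601% higher and 0.0841% lower (10 higher and 14 lower, or 7 higher and 3 lower after centring and 8 higher and 21 lower by edgeR), and the members' median was −0.60 beside 0 for all genes.

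Sepp1 had 14070, 7738, 11190 and 14790 normalised counts in TAM_CreERT2, against 3712 and 8449 in TAM_WT. One TAM_CreERT2 library lay below the higher TAM_WT library, and the change of 1.05 did not pass (95% interval 0.50 to 1.59, unadjusted p = 0.000685, adjusted p = 0.173). It ranged from 0.46 to 1.64 with 1 library left out, and passed without TAM_WT replicate 3 (adjusted p = 0.0199). Gpx1 had 1704, 1292, 1627 and 2413 in TAM_CreERT2, against 2629 and 3310 in TAM_WT. Its groups did not overlap, as for 13.7% of all genes tested, and the change of −0.78 did not pass (adjusted p = 0.301).

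Gpx4 had 50.97 to 104 in TAM_CreERT2 against 96.36 and 139.3 in TAM_WT (−0.78, adjusted p = 0.617), and Gclc had 33.24 to 89.89 against 172.3 and 100.9 (−1.18, adjusted p = 0.724). Prdx1 had 976 to 1189 against 1131 and 1257 (−0.17, adjusted p = 0.852), and Txnrd1 had 42.33 to 101.4 against 56.34 and 39.07 (0.56, adjusted p = 0.850). Srxn1 and Slc7a11 varied within TAM_CreERT2 from 1.284 to 23.85 and from 1.136 to 37.67. Of the 151 pathway genes, limma and edgeR called 0, DESeq2 called 3, and 23 had an unadjusted p under 0.05, 16 of them lower. Erythroid markers made up 12.8 to 20.8% of the signal in TAM_CreERT2 against 7.57 to 11.1% in TAM_WT, with 2 of 24 higher, 0 lower and a median log2 change of −0.14. Their part in the lower Txn1 was not tested. Red pulp and island macrophage markers made up 1.20 to 1.48% in TAM_CreERT2 against 1.46 to 1.86% in TAM_WT, with 1 of 13 lower.

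Set side by side, Txn1 changed by −1.23, −1.13, −1.08 and −1.27 in vavCre spleen, vavCre marrow, Spic_KO and TAM_CreERT2, and passed in all 4, each with its own WT group. Gpx1 changed by −0.92, −0.75, −0.97 and −0.78 and passed in the first 3. Sepp1 changed by 1.84, 1.07, 0.38 and 1.05 and passed in the first 2. Gpx4 and Gclm were negative in the 4 comparisons as fitted, with Gclm turning positive in marrow after centring. Spleen and marrow libraries of vavCre pups may share animals, which the labels do not say.

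The level of Sepp1 in the second table cannot be separated from that of Ccdc152, a gene whose exons overlap Sepp1 exons on the opposite strand. In the second table Ccdc152 held 6857 to 7961 normalised counts in Spic_KO against 3953 to 4203 in Spic_WT, and 7450 to 14340 in TAM_CreERT2 against 3533 to 7559 in TAM_WT. That is 89.9 to 92.4% of the Sepp1 value in Spic_KO against 54.5 to 72.4% in Spic_WT, and 95.6 to 97.0% in TAM_CreERT2 against 89.5 to 95.2% in TAM_WT. In the first table Ccdc152 stayed between 0.00988 and 0.0862% of the Sepp1 value in all 12 libraries. With the counts of both genes summed, Sepp1 changed by 0.58 in Spic_KO (adjusted p = 0.227) and by 1.08 in TAM_CreERT2 (adjusted p = 0.116). Whether reads were counted by strand is not given in the sources used here.

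**Figure D5:**
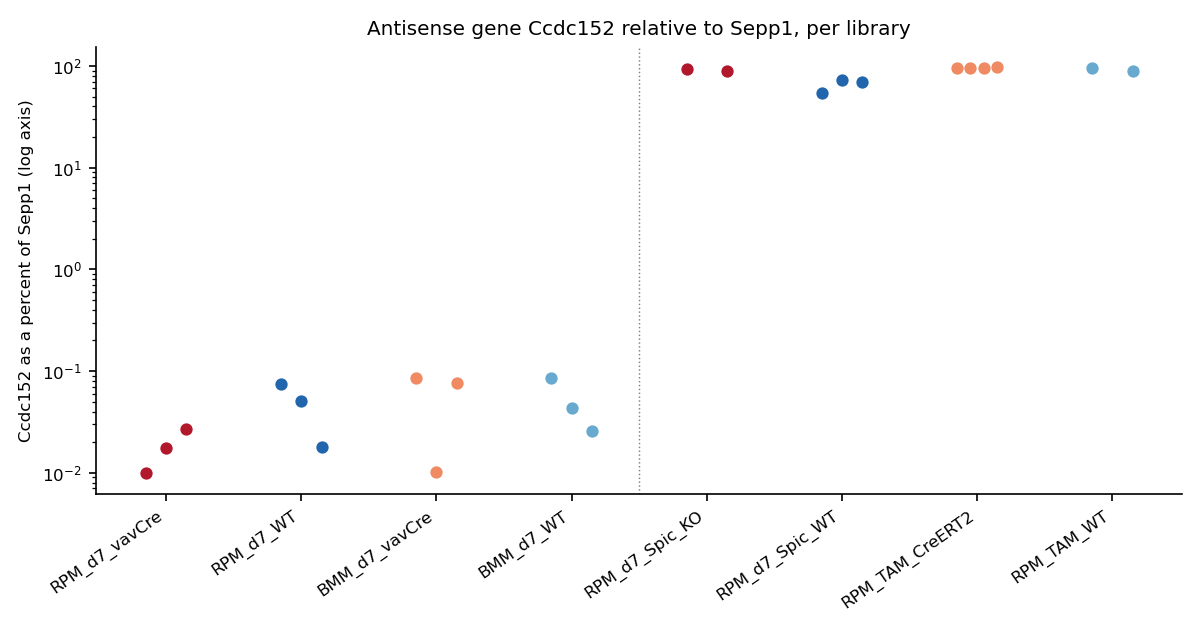
Normalised counts of Ccdc152 as a percentage of those of Sepp1 in each library (log axis), by group, with mutants left of WT. The 12 libraries of the first table lie below 0.1%, and the 11 of the second between 54.5 and 97.0%.

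Promoters were read because Txn1 and Gpx1 fell together. The stretches are the 250 bases before the RefSeq start of each gene (GRCm38.p6), 5′ to 3′ on the gene's strand.
Txn1, chr4:57956412-57956661, minus strand: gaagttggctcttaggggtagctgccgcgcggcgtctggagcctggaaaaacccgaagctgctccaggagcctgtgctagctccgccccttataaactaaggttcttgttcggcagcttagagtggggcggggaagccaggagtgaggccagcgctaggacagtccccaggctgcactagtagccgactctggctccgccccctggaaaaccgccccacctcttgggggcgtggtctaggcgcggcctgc
Gpx1, chr9:108338830-108339079, plus strand: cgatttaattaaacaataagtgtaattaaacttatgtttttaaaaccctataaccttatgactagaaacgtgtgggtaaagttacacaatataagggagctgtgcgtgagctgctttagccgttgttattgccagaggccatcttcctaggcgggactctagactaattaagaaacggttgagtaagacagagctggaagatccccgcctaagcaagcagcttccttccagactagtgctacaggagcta
Neither holds, on either strand, the antioxidant response element core TGACNNNGC, the only form of the letters bound by NRF2 that was searched for. Neither holds a direct repeat of AGGTCA with 1 base between the copies, the PPAR response element that PPARγ binds as a dimer with RXR. Across the 9 members with a RefSeq promoter entry (16 windows, as a gene may have several starts), the core was found in 3 members, against 11.5% of all 27025 genes and 10.2% of all 32851 windows. The direct repeat was found in 0 members, against 0.0335% of all windows. Only exact copies were searched for, and at so low a share their absence from 16 windows shows nothing about these genes. The 3 matches are shown with 20 bases on either side, in capitals as read on the plus strand, and each match lies on the minus strand.
Prdx1, chr4:116685446-116685494: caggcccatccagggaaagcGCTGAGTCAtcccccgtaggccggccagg
Gclm, chr3:122245403-122245451: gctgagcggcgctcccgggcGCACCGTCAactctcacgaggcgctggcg
Txnrd1, chr10:82859094-82859142: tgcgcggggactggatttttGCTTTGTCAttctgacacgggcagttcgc
They lie 133, 134 and 92 bases before the start, in 1 of the 3 windows of Txnrd1. None of these 3 genes passed in a vavCre comparison, and Txnrd1 fell in Spic_KO. A match is a run of letters and not a measured binding site.

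The genes whose log2 levels followed the members most closely over the 12 libraries of the first table, which fall into 4 groups, were ranked by Pearson's r among 10428 genes. For Sepp1 they were Wfdc17 (0.987), Cd209f (0.976) and Ms4a6b (0.976). For Txn1 they were Oaf (0.986), Id2 (0.981) and Cox6a2 (0.979). For Gpx1 they were Lbh (0.972), Il18 (0.972) and Fech (0.968), the last of which inserts iron in the final step of making haem. For Gclc they were Samd4 (0.910), Ccnl2 (0.909) and Lrrc18 (0.904). These values describe 12 libraries that share their genotype and tissue groups.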

How the data were processed

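RNA-seq was measured in 23 libraries, and 2 deposited tables were used. The authors' deposited signal values are normalised read counts per gene, and the submitters' processing notes name STAR, edgeR and the build GRCm38 without their roles. Versions and counting settings are not given in the sources used here. Within 0.1 of a read, low values were whole multiples of what 1 read is worth (97.7 to 100% of them per library in the first table, and at least 96.4% in the second), and this gave the depth. No column was left unused.

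Log2(value + 1) was fitted with limma 3.58.1 in R 4.3.3 (trend and robust), with 1 mean per group over all libraries of a table, after genes that reached 1 normalised count in fewer than 2 libraries had been dropped. edgeR 4.0.16 and DESeq2 1.42.0 on the recovered reads, other filters, pseudocounts, centring, library weights, the replicate number as a block and leaving out libraries were alternatives. The summing of Sepp1 and Ccdc152 was chosen after seeing the data. The code was tested on counts simulated with 1 fixed spread for all genes, which differs from the real spread. There, 10% of 2-fold changes were recovered for Spic_KO, 15% for TAM_CreERT2 and 30 to 41% in the first table. At least 96% of 4-fold changes were recovered. False calls were 13.2% of calls over all genes in vavCre marrow, and 2.82% among genes with a mean of at least 20. A 2-fold change that did not pass is thus not shown to be absent. Named genes were the 10 members and, from each pathway list, up to 3 genes with the smallest adjusted p, or the most abundant one where none passed; a selection of these is printed. Likeness was ranked among genes with a mean of at least 20. The members and lists were chosen with earlier results of these data known. Counts in groups with 0 reads are given without a fold.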

Additional observations from a re-analysis of the deposited data

Results flagged for a closer look

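The vavCre effect on Sepp1 differed between the tissues by a test of the difference itself: the log2 change in spleen (1.84) exceeded that in marrow (1.07) by 0.77 (limma, adjusted p = 0.00608). Every one of the 6 vavCre libraries lay above every one of the 6 WT libraries. Within a single tissue, groups were separate, in either direction, for 24.01% of all genes tested in spleen and 19.82% in marrow. The difference ranged from 0.70 to 0.86 with 1 library left out, with adjusted p from 0.0012 to 0.041. Stray libraries were looked for only in TAM_CreERT2, the group with 4 libraries, for each of the 10 members, and 0 stood apart. Groups with fewer libraries, all day 7 groups among them, were not examined in this way.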

How the results depend on the processing

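Counts of genes called moved most. In vavCre spleen 835 genes became 546 with a log2 limit of 1, 1488 with library weights, 1290 by DESeq2, 1367 with only the compared groups fitted, and 536 to 649 with 1 library left out (536 without RPM_d7_vavCre replicate 2, 555 without RPM_d7_WT replicate 2), and in vavCre marrow 1182 became 742 with only the compared groups and 890 to 1102 with 1 library left out. The members called there were 2 with the log2 limit and 3 with any 1 library left out in spleen, and in marrow were 2 with the log2 limit and 3 to 4 with 1 library left out. The interaction's 18 genes became 11 with no filter, 31 by edgeR with TMM or RLE scaling, 101 by DESeq2 (73 higher and 28 lower, in place of 17 and 1) and 11 to 24 with 1 library left out, and its member count was 0 with the log2 limit. For spleen against marrow in WT, 588 genes became 329 with the log2 limit, 964 with weights, 966 by DESeq2 and 269 to 665 with 1 library left out, and 2 members became 0 with the log2 limit, 1 with no filter and 1 to 3 with 1 library left out; in vavCre, 529 genes became 963 by DESeq2 (592 higher and 371 lower, in place of 405 and 124) and 271 to 479 with 1 library left out. In Spic_KO 658 genes became 414 with weights, 1035 by edgeR with RLE scaling (655 higher and 380 lower), 1736 by DESeq2 and 261 to 1972 with 1 library left out, and 4 members became 1 after centring, 2 with weights, and 0 to 4 with 1 library left out. In TAM_CreERT2 24 genes became 5 with no filter, 14 and 9 with pseudocounts of 0.1 and 5, 10 after centring, 137 by DESeq2, 37 with only the compared groups, 47 without Spic_KO replicate 2 and TAM_CreERT2 replicate 2, and 2 to 47 with libraries left out; 1 member became 0 with no filter, a pseudocount of 5, centring or weights, and 0 to 2 with libraries left out. The cause was not tested.

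In the 4 genotype comparisons, the members whose change turned direction, none of them called as fitted, were Slc7a11 in spleen (−1.89 to 0.12 with 1 library left out, positive without RPM_d7_vavCre replicate 1); Gclm in marrow (0.057 after centring, and −0.16 to 0.078 with 1 library left out); Gclc (−0.28 to 3.52) and Srxn1 (−1.90 to 2.92) in Spic_KO, negative without Spic_KO replicates 2 and 1 in turn; Gclm in TAM_CreERT2 (−1.05 to 0.20, positive without TAM_WT replicate 3); and Srxn1 there by edgeR (0.11 and 0.18 with TMM and RLE), by DESeq2 (0.19) and with 1 library left out (−0.72 to 0.42, positive without TAM_CreERT2 replicate 5). The cause was not tested. In the tissue comparisons and the interaction, Sepp1, Txn1 and Gpx1 turned under no alternative run, and Gclc, Gclm, Gpx4, Slc7a11, Srxn1 and Txnrd1, whose changes there are not printed, turned 45 times in all. Of the values under alternatives for the members in the genotype comparisons, for Sepp1, Txn1 and Gpx1 elsewhere and for the named pathway genes, 1944 kept direction and call, 241 lost the call, 8 gained it and 13 turned.

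Deviations of same-numbered libraries from their group means correlated at −0.0496 to 0.0936. With 2 or 3 libraries per group, this cannot show whether same-numbered libraries share an animal or litter. With the number as a replicate block, Spic_KO gave 332 genes and 2 members (Txn1 and Gpx4 lost the call), vavCre marrow 1094 genes and 3 members (Gclc lost it) and vavCre spleen 784 genes and 3 members. For the adult comparison only, no paired analysis was possible because TAM_CreERT2 and TAM_WT share 1 number. Depth limits Srxn1 and Slc7a11, which rest on few reads in the second table, and groups of 2 libraries limit the Spic_KO and TAM_CreERT2 comparisons.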
